A study of Mus musculus with 6 samples.

Results

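The microsomal cytochrome P450 genes of families 1 to 3 were examined in mouse liver after siRNA against Rnf10, the gene of the E3 ubiquitin ligase RNF10. Members were the genes of the deposited count table whose symbol is Cyp1, Cyp2 or Cyp3 followed by 1 letter and a number, and 23 symbols ending in -ps, which mark pseudogenes, were left out. This gave 58 genes of 55487, in 16 subfamilies named by the letter. The libraries came from the livers of 3 mice given GalNAc-siNC, a control siRNA, and 3 given GalNAc-siRnf10, which the study's text calls GalNAc-siRnf10-2, and each mouse gave 1 library. All 6 were wild-type C57BL/6J males on a normal chow diet, all were given the conjugate under the skin, and livers were taken at 17 weeks of age. The N-acetylgalactosamine (GalNAc) ligand is taken up by hepatocytes through the asialoglycoprotein receptor, so the other cells of the liver, which the tissue RNA also holds, were not the target. All libraries carry the same batch label.

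Cytochromes P450 are heme proteins of the endoplasmic reticulum that insert 1 oxygen atom into a substrate with electrons passed on by NADPH-cytochrome P450 reductase. Families 1 to 3 hold the enzymes that oxidize drugs, toxicants, steroids and fatty acids, and hepatocytes, above all those around the central vein, are their main site. Many are induced by ligand-sensing factors: AHR for Cyp1a genes, CAR for Cyp2b genes and PXR for Cyp3a genes. In mouse, most lie in tandem gene clusters whose members are close paralogs, and several differ between the sexes.

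Rnf10 (ENSMUSG00000041740), the targeted gene, had TMM-normalized counts of 3869, 4536 and 4040 in the GalNAc-siNC mice and 1738, 1820 and 1793 in the GalNAc-siRnf10 mice. It fell by 57.0%, a log2 fold change of -1.22 (SE 0.0715, adjusted p = 3.29e-09, edgeR), and its groups did not overlap. Total counts were between 26854377 and 33058645 per library. Hepatocyte markers such as Alb were abundant in every library and lymphocyte markers together made up 4.99 to 8.02 CPM, counts scaled to library size.

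Of the 58 P450 genes, 41 had enough counts to be tested, and 18 of these rose and 5 fell in GalNAc-siRnf10 mice at an adjusted p under 0.05. Over all 14046 genes tested, 14% were called, 6.71% higher and 7.28% lower. The median log2 fold change was 0.23 over the tested P450 genes and 0.0022 over all tested genes. The risers included the prototypical inducible genes Cyp2b10 and Cyp3a11 and the coumarin hydroxylase gene Cyp2a5, while the most abundant member, Cyp2e1, and the constitutive Cyp1a2 rose by smaller amounts. The fallers, Cyp2c67, Cyp2c69, Cyp2d40, Cyp2u1 and Cyp3a13, moved by at most 0.38 on the log2 scale. Of the called genes, Cyp2a4 and Cyp2b10 reached the test only through the treated mice, and with at least 10 counts required in every mouse, which leaves both out, 16 members rose and 5 fell. In all 23 called genes the values of the 2 groups did not overlap, which is no support beyond the calls themselves. Cyp1a1, Cyp2c23, Cyp2f2 and Cyp3a59, which were not called, did not overlap either, and the share over all tested genes was not counted. Tissue RNA cannot tell fewer or more hepatocytes from less or more of each RNA per hepatocyte.

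P450 transcripts are abundant, and abundant genes were called more often here. Among the 3512 tested genes that averaged 1000 or more normalized counts, 13.4% were higher and 12.3% lower, and among the 24 P450 genes above that level 13 were higher and 4 lower. Among the 364 genes at 10000 or more, 32.1% were higher and 19.8% lower, and the 14 P450 genes of that level gave 9 higher and 5 not called. Other Cyp genes were taken as symbols of a family number, 1 letter and a number, with or without a last letter, and symbols of other forms were left out. These 40 genes, all of other families but Cyp3a41a and Cyp3a41b, gave 24 tested genes, of which 7 were higher and 4 lower.

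**Figure D1:**
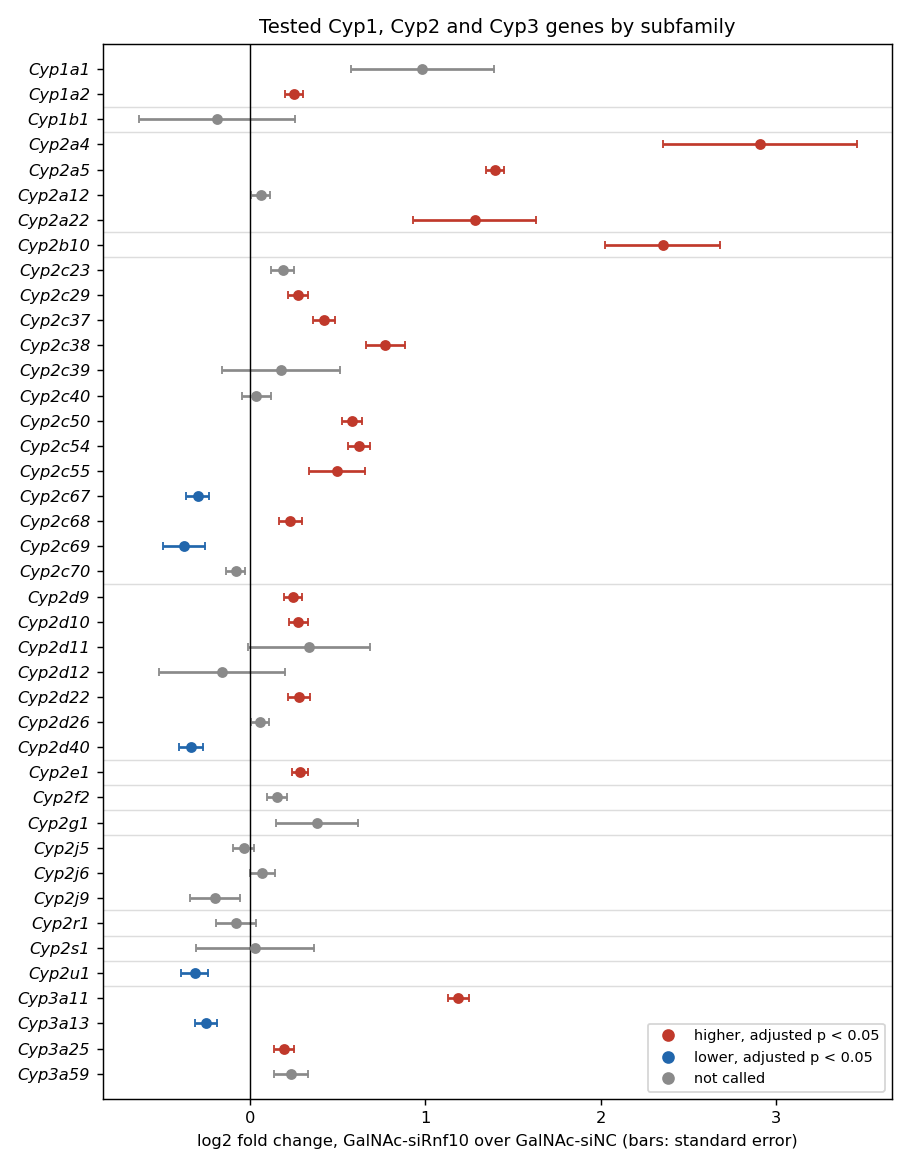
The log2 fold change of GalNAc-siRnf10 over GalNAc-siNC for the 41 tested genes of Cyp families 1 to 3, with 1 gene per line in order of subfamily. Points are edgeR estimates from 3 mice per group and bars are standard errors. The 18 genes called higher are red, the 5 called lower are blue, and Cyp2a4 and Cyp2b10 lie farthest to the right. Both reached the test only through the treated mice.

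Promoters of 5 genes are printed here. Cyp2a5, Cyp2b10 and Cyp3a11 were called higher at log2 fold changes over 1 and are the most abundant such genes in their subfamilies. Cyp2b10 needed the treated mice to be tested, so its call supports nothing beyond its own values. Cyp2c50 is the most abundant of the Cyp2c genes with a rise of over 0.5 in log2 fold change, and Cyp3a13 is a Cyp3a gene that fell. The sequences are from RefSeq on GRCm38.p6, each 300 bases long, 5′ to 3′ along the gene, and span its RefSeq transcription start: Cyp2a5 at chr7:26835089-26835388 (plus strand), Cyp2b10 at chr7:25897408-25897707 (plus), Cyp3a11 at chr5:145879805-145880104 (minus), Cyp2c50 at chr19:40089429-40089728 (plus) and Cyp3a13 at chr5:137921570-137921869 (minus). Capitals mark matches, on either strand, to AGGTCA or AGTTCA (half-sites bound by nuclear receptors such as CAR and PXR), GCGTG (the core bound by AHR with ARNT), TTATGTAA or TTACGTAA (the D-box of PAR bZIP factors), TTGCNNAA (C/EBP) and CAAAGTCCA (HNF4).
Cyp2a5: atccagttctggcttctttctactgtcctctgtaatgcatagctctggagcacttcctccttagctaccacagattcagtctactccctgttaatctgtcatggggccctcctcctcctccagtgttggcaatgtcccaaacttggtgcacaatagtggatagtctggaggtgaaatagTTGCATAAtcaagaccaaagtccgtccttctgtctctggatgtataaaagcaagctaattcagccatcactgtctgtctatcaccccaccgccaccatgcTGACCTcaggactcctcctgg
Cyp2b10: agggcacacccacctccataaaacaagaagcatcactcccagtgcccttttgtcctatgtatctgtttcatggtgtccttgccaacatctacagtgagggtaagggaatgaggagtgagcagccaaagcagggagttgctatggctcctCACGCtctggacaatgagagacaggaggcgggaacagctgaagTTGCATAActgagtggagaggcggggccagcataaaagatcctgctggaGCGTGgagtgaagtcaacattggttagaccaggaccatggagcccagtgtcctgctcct
Cyp3a11: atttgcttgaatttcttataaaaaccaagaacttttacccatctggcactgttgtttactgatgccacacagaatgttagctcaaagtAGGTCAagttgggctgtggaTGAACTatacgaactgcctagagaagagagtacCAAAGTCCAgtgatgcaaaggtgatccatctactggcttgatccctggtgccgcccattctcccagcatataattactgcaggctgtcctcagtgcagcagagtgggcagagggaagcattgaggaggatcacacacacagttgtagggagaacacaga
Cyp2c50: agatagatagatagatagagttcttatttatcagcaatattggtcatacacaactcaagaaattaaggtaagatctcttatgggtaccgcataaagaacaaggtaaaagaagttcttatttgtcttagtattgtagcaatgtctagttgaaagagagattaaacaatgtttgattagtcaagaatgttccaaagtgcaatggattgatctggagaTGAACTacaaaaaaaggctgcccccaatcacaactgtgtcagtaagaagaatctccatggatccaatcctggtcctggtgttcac
Cyp3a13: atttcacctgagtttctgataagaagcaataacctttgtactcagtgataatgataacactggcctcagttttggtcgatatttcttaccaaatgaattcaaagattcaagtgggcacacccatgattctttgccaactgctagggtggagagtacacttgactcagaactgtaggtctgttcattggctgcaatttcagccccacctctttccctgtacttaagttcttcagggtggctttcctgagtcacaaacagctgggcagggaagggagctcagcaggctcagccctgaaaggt

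Cyp2a5 and Cyp2b10 both carried TTGCATAA on the plus strand, a match to the C/EBP letters. Cyp2a5 also held 1 match to AGGTCA, which lies downstream of its transcription start and after an ATG. Cyp2b10 held 2 matches to GCGTG, Cyp2c50 held 1 to AGTTCA, Cyp3a11 held 1 match to each nuclear receptor half-site and 1 to the HNF4 letters, and Cyp3a13 held none of the letters searched. RefSeq promoters were matched for 50 of the 58 members. CAAAGTCCA was found in 8 of these 50 (16%) and in 0.475% of 32851 promoters of all genes, AGGTCA in 34% and 16.3%, TTGCNNAA in 28% and 10.8%, GCGTG in 18% and 32.4%, and AGTTCA in 12% and 14.0%. The D-box words TTATGTAA and TTACGTAA were in no member promoter and in 0.938% and 0.119% of all promoters. By call, AGGTCA was in 5 of the 16 promoters of genes that rose, 1 of 4 that fell, 4 of 15 that were tested and not called, and 7 of 15 that were not tested. Among these, the matches of the risers Cyp2a4 and Cyp2a5 and of the faller Cyp2d40 lay downstream of the transcription start, after an ATG. Member promoters are copies of each other in part, so these counts are not independent, and a match is not evidence of binding. Only these 300-base windows were searched, so a missing match says nothing about sites farther from the start.

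In the Cyp1 family, Cyp1a2, the arylamine and caffeine oxidase that is constitutive in liver, rose and the AHR-inducible Cyp1a1 was not called. Cyp1a2 (chr9:57676937-57683703, GRCm38) had normalized counts of 24856, 26997 and 25060 in GalNAc-siNC mice and 30380, 30840 and 30283 in GalNAc-siRnf10 mice. The 3 treated mice lay above all controls, at a log2 fold change of 0.25 (SE 0.0521, adjusted p = 0.00327). Cyp1a1 lies beside it on the chromosome in the opposite direction and was near the lower end of detection, with 19.2, 9.28 and 15.8 against 21.5, 44.0 and 22.4. Its groups did not overlap, but the log2 fold change of 0.98 had an SE of 0.409 and an adjusted p of 0.128. Only 2 of 3 control libraries, against all treated ones, reached the minimum of the filter on low counts, so Cyp1a1 needed the treated mice to be tested. Cyp1b1, a mostly extrahepatic estrogen and arene oxidase, was at 19.2, 10.3 and 17.8 against 9.04, 13.4 and 19.2, overlapping groups with a log2 fold change of -0.19 (SE 0.447, adjusted p = 0.833).

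In the Cyp2a subfamily 3 of 4 genes rose. Cyp2a5 (ENSMUSG00000005547, chr7:26835305-26843548), the mouse coumarin 7-hydroxylase, had 10346, 11029 and 10568 in GalNAc-siNC mice and 27924, 28194 and 27987 in GalNAc-siRnf10 mice. It was 2.63-fold higher, a log2 fold change of 1.40 (SE 0.0523, adjusted p = 9.01e-12). This was the lowest adjusted p of the 41 tested P450 genes, with an SD of 348 normalized counts in controls and 141 in treated mice. Cyp2a4, the steroid 15α-hydroxylase gene that is higher in female mice, had 2.61, 1.03 and 5.93 normalized counts in controls and 21.5, 21 and 31.9 in treated mice, a log2 fold change of 2.91 (SE 0.552, adjusted p = 0.00159). It passed the filter on low counts through the treated mice alone, since 0 of 3 control libraries reached the minimum of 10 counts at the median library size, so its call had to be a rise and supports nothing beyond its own values. Its raw counts were 3, 1 and 6 against 19, 22 and 30, and the ratio of the sums scaled to TMM-scaled library size was 7.74 (95% exact counting interval 3.97 to 16.8). Cyp2a4 and Cyp2a5 share exact stretches of at least 100 bases over 39.0% and 41.7% of their transcripts. Cyp2a5 had 11885, 10693 and 10696 raw counts in controls and 24705, 29488 and 26280 in treated mice, and the part of reads from shared stretches in the Cyp2a4 counts was not tested. Cyp2a22 rose by 1.28 on the log2 scale (SE 0.35, adjusted p = 0.0202) at a mean of 18.3 normalized counts in controls. The call was lost without GalNAc-siNC mouse 2 or 3 or GalNAc-siRnf10 mouse 1 or 3, with log2 fold changes of 1.05 to 1.78 when any 1 mouse was left out. Cyp2a12, at 18756 normalized counts in controls and 19567 in treated mice, had overlapping groups and a log2 fold change of 0.06 (SE 0.0531).

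Cyp2b10 (ENSMUSG00000030483, chr7:25897620-25926624), the standard CAR target of mouse liver, was the tested gene of the Cyp2b subfamily. It had 13.1, 24.8 and 7.90 normalized counts in GalNAc-siNC mice and 84.8, 68.8 and 79.9 in GalNAc-siRnf10 mice. The treated mice were all at least at 68.8 and the controls at most at 24.8, a 5.11-fold difference with a log2 fold change of 2.35 (SE 0.329, adjusted p = 9.01e-05). Its level stayed low per length, at 0.243 RPKM (counts scaled by gene model length and TMM-scaled library size) in controls and 1.24 in treated mice, against 2817 and 3439 for Cyp2e1. With 2 of 3 control libraries and all treated libraries at the minimum of the filter, it too needed the treated mice to be tested, so its call supports nothing beyond its own values. It shares no exact stretch of 100 bases with another gene. Cyp2b9 and Cyp2b13, which are female-predominant, Cyp2b19 and Cyp2b23 had 2 counts in all over the 6 libraries, those of Cyp2b9 in GalNAc-siRnf10 mouse 2, which allows no comparison.

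Among 15 Cyp2c genes, the arachidonic acid and drug oxidases with the most members, 13 were tested, 7 rose and 2 fell. Cyp2c38 had 331, 260 and 298 in GalNAc-siNC mice and 536, 495 and 492 in GalNAc-siRnf10 mice, with a log2 fold change of 0.77 (SE 0.112, adjusted p = 0.000134). Cyp2c54 had 7500, 6480 and 7034 against 10924, 10942 and 10445, with a log2 fold change of 0.62 (SE 0.0617, adjusted p = 1.90e-06). Cyp2c50 had 21344, 18653 and 19979 against 29854, 30522 and 29321, with a log2 fold change of 0.58 (SE 0.0568, adjusted p = 1.63e-06). In each of these 3 genes the lowest treated mouse was above the highest control. Cyp2c29, the most abundant Cyp2c gene by mean normalized count and a known CAR-responsive gene, had 38094, 32291 and 34795 against 42746, 42002 and 42421. Its rise was smaller, at 0.27 on the log2 scale (SE 0.0586, adjusted p = 0.00405), with no overlap. Cyp2c37, Cyp2c55 and Cyp2c68 rose by log2 fold changes of 0.42, 0.50 and 0.23.

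The Cyp2c genes that fell were Cyp2c67, with 8873, 7515 and 8251 in GalNAc-siNC mice and 6941, 6742 and 6354 in GalNAc-siRnf10 mice, and Cyp2c69, with 292, 282 and 303 against 243, 212 and 220. Their log2 fold changes were -0.30 (SE 0.0661, adjusted p = 0.0052) and -0.38 (SE 0.118, adjusted p = 0.0422). Both belong to a block of 4 near-identical neighbours with Cyp2c68, which rose, and Cyp2c40, at 0.04 (SE 0.08), in which exact shared stretches cover 37.3% to 73.7% of each transcript. Summed over the 4 genes, the sum was 520 ± 37.9 CPM in controls and 502 ± 19.4 in treated mice (SD, n = 3), and the groups overlapped. How the counting divided shared reads among the 4 genes is not given in the sources used here. By contrast the sum over Cyp2c37, Cyp2c50 and Cyp2c54, another block with shared stretches, was 1043 ± 69.0 and 1550 ± 34.2 CPM without overlap, a ratio of 1.49. Cyp2c70, the bile acid 6β-hydroxylase that makes muricholic acids in mouse, had a log2 fold change of -0.08 (SE 0.0551, adjusted p = 0.377), with overlapping groups. Cyp2c23 had 0.19 (adjusted p = 0.0728) and Cyp2c39 had 0.18 (adjusted p = 0.786). Leaving out 1 mouse ended the calls of Cyp2c55, Cyp2c68 and Cyp2c69 for every mouse but GalNAc-siNC mouse 1 and that of Cyp2c67 without GalNAc-siRnf10 mouse 3, with log2 fold changes between 0.44 and 0.55, 0.18 and 0.29, -0.43 and -0.33, and -0.36 and -0.24; without GalNAc-siNC mouse 1, Cyp2c23 was called at 0.27. Cyp2c55 also lost its call in 6 of the fits that kept all mice, and Cyp2c68 stood at 0.05 after a correction for GC content and length.

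**Figure D2:**
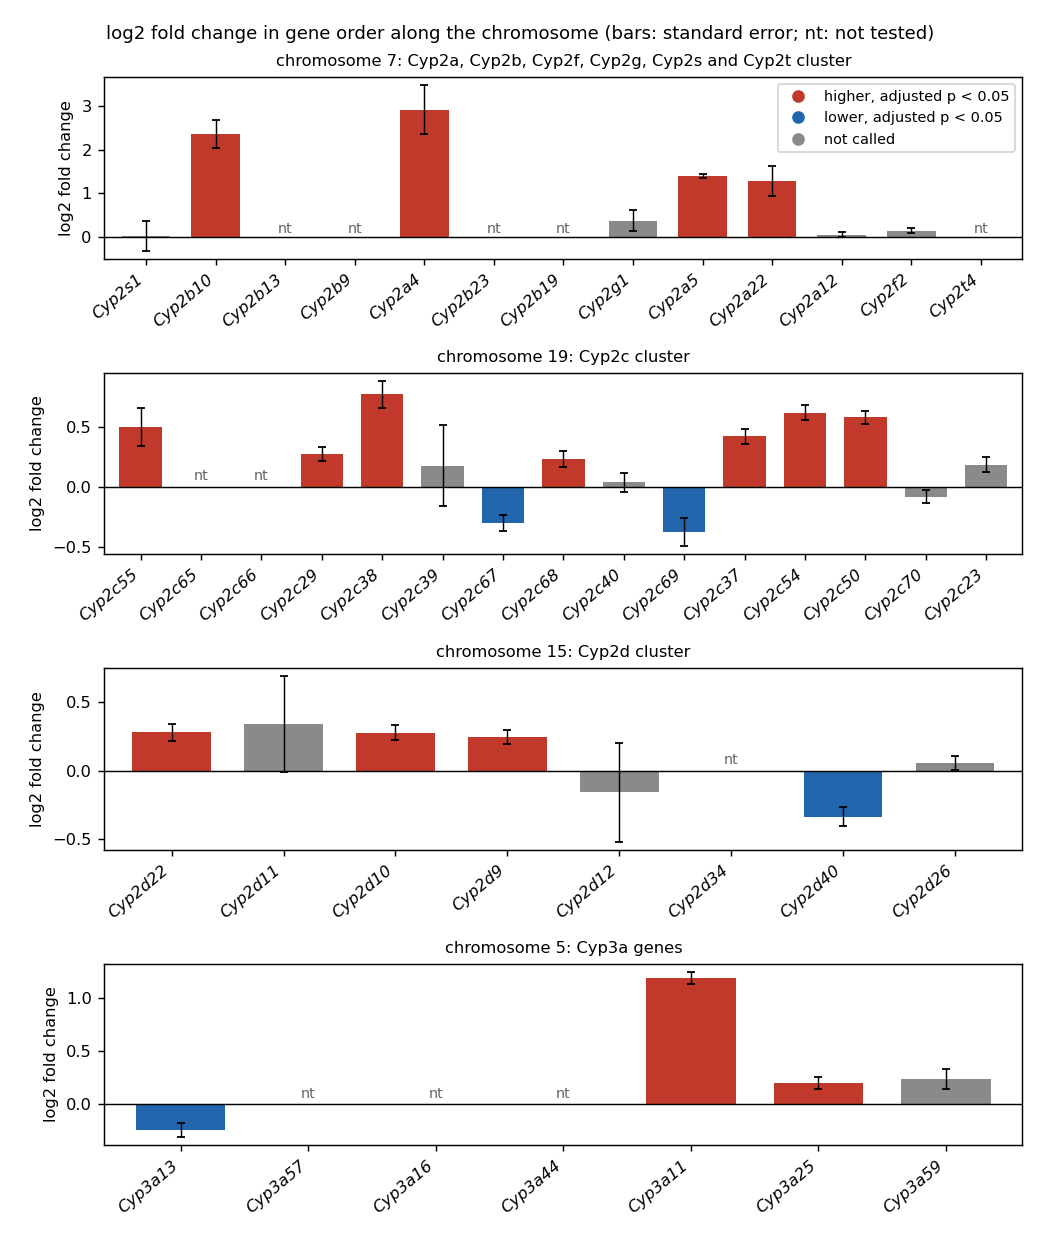
The log2 fold change of GalNAc-siRnf10 over GalNAc-siNC, drawn in gene order for the clusters on chromosomes 7, 19, 15 and 5, with standard errors from 3 mice per group; the vertical scales differ between panels and nt marks genes not tested. On chromosome 19 the fallers Cyp2c67 and Cyp2c69 lie on either side of Cyp2c68 and Cyp2c40, and the neighbours Cyp2c37, Cyp2c54 and Cyp2c50 all rose.

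Of 8 Cyp2d genes, the mouse counterparts of human debrisoquine hydroxylase, 7 were tested, 3 rose and 1 fell. Cyp2d9, the male-predominant testosterone 16α-hydroxylase and the second most abundant member per length in controls, had 42411, 42196 and 41289 in GalNAc-siNC mice and 50191, 50646 and 48433 in GalNAc-siRnf10 mice. All treated mice were above all controls, at a log2 fold change of 0.25 (SE 0.0485, adjusted p = 0.0022). Cyp2d10 and Cyp2d22 rose by 0.28 each. Cyp2d40 fell, with 3646, 4128 and 4079 against 3178, 3248 and 2964 and a log2 fold change of -0.34 (SE 0.0685, adjusted p = 0.00283), and it shares no exact 100-base stretch with another gene. Cyp2d26, one of the most abundant of the group at 493 RPKM in controls and 513 in treated mice, was not called at 0.06, nor were Cyp2d11 (0.34, SE 0.35) and Cyp2d12 (-0.16, SE 0.358), which had means under 32 normalized counts. Cyp2d9, Cyp2d10 and Cyp2d11 share exact stretches over 32.4% to 39.6% of their transcripts, and the sum over these and Cyp2d12 rose from 2128 ± 21.1 to 2541 ± 63.1 CPM (SD, n = 3) with no overlap. Cyp2d22 was not called without GalNAc-siRnf10 mouse 2, at 0.25, and Cyp2d10 was not called after the GC content and length correction, at 0.20.

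Cyp2e1 (chr7:140763739-140774987), which oxidizes ethanol, acetone and paracetamol and marks hepatocytes near the central vein, was the most abundant member in both groups. It had 185929, 176686 and 178417 normalized counts in GalNAc-siNC mice and 222785, 220081 and 217649 in GalNAc-siRnf10 mice. The groups were separate and the log2 fold change was 0.29 (SE 0.0457, adjusted p = 0.000326), a 1.22-fold difference. Its part of all member counts was 32.5% to 32.7% in control libraries and 31.7% to 31.8% in treated libraries.

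In the Cyp3a subfamily, which carries the PXR targets and the most used drug-oxidizing activity, 4 of 7 genes were tested, 2 rose and 1 fell. Cyp3a11 (ENSMUSG00000056035, chr5:145854426-145879964), the main adult enzyme of this group in mouse liver, had 32068, 27625 and 28914 in GalNAc-siNC mice and 68886, 65036 and 68198 in GalNAc-siRnf10 mice. It was 2.28-fold higher, at a log2 fold change of 1.19 (SE 0.0587, adjusted p = 4.15e-10), and the lowest treated mouse was far above the highest control. Cyp3a25 rose by 0.19 (SE 0.0567, adjusted p = 0.029) and its near copy Cyp3a59 stood at 0.24 (SE 0.097, adjusted p = 0.122). Cyp3a13, which lies apart from the other Cyp3a genes on chromosome 5 and shares no exact 100-base stretch with them, fell instead, with 8470, 7205 and 7599 against 6715, 6348 and 6500, a log2 fold change of -0.25 (SE 0.0647, adjusted p = 0.0146) and no overlap. Cyp3a16, Cyp3a44 and Cyp3a57 had at most 16 counts in any library. The call of Cyp3a13 was lost without any 1 of the GalNAc-siRnf10 mice, within a range of -0.30 to -0.18 over all fits that left out 1 mouse, and that of Cyp3a25 without any mouse but GalNAc-siNC mouse 1, within 0.15 to 0.24, and at 0.05 after the GC content and length correction; Cyp3a59 was called at 0.30 without GalNAc-siNC mouse 1.

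**Figure D3:**
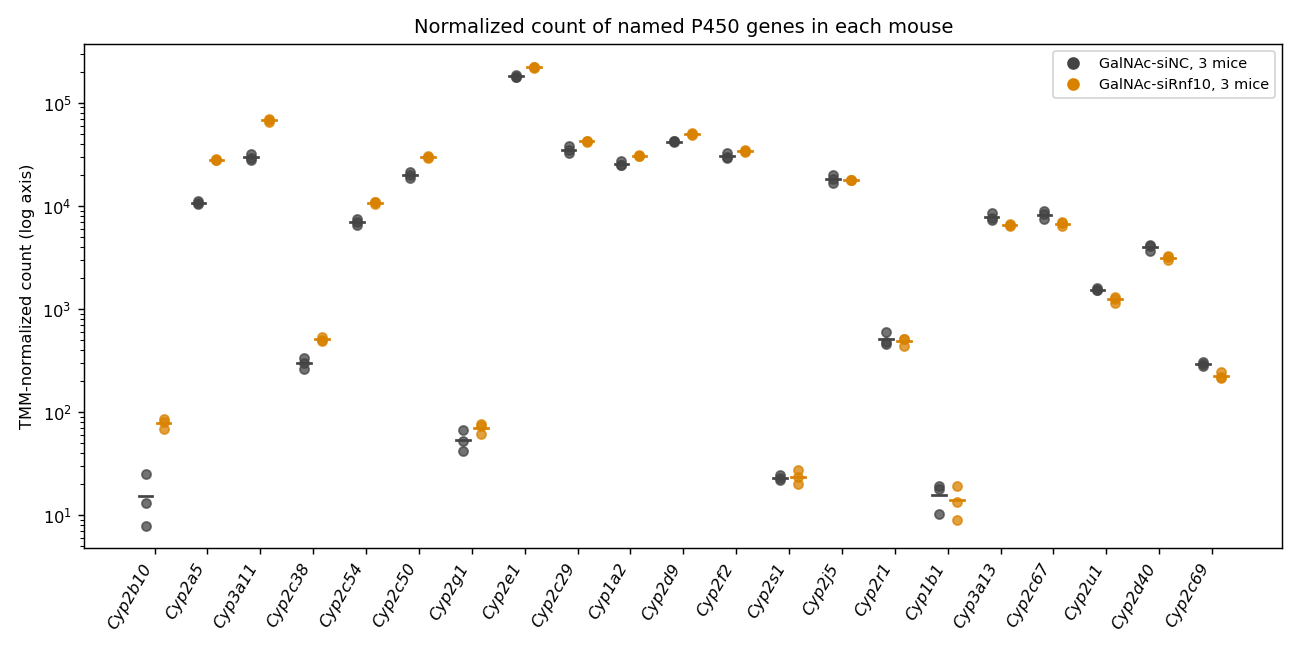
TMM-normalized counts on a log axis for the P450 genes named by the rule, in order of log2 fold change from left to right, with 1 point per mouse (3 GalNAc-siNC mice in grey, 3 GalNAc-siRnf10 mice in orange) and a line at each group mean. Cyp2b10, Cyp2a5 and Cyp3a11 at the left show gaps between the groups that are wide against the spread within a group, and Cyp2g1, Cyp2s1, Cyp2j5, Cyp2r1 and Cyp1b1 overlap. Cyp2b10 reached the test only through the treated mice.

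The remaining Cyp2 subfamilies held 1 called gene, Cyp2u1, a fatty acid hydroxylase. It had 1510, 1515 and 1594 in GalNAc-siNC mice and 1308, 1144 and 1261 in GalNAc-siRnf10 mice, a log2 fold change of -0.32 (SE 0.0752, adjusted p = 0.00894) with no overlap; without GalNAc-siRnf10 mouse 2 it was not called, at -0.26. Cyp2f2, which is known for bioactivation of naphthalene in lung and is also a gene of periportal hepatocytes, had 28996, 32407 and 29920 against 34139, 34557 and 32930. Its groups did not overlap, but at a log2 fold change of 0.15 (SE 0.0545) the adjusted p was 0.0722; without GalNAc-siNC mouse 1 or 2 it was called, at 0.12 and 0.20. Cyp2f2 overlaps exons of the antisense gene Gm15883 (at most 322 counts) and Cyp2u1 those of 4930534D22Rik (at most 4 counts), and the strand setting of the counting is not given in the sources used here.

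Cyp2j5, an epoxygenase of arachidonic acid, had 19787, 16835 and 18008 against 17965, 17752 and 17646, which overlap, with a log2 fold change of -0.03 (SE 0.06, adjusted p = 0.768). The other tested Cyp2j genes stood at 0.07 for Cyp2j6 and -0.20 for Cyp2j9, and 5 of the 8 members of the subfamily had at most 6 counts in any library. Cyp2r1, a vitamin D 25-hydroxylase, had 601, 475 and 457 against 441, 505 and 508, again overlapping, with a log2 fold change of -0.08 (SE 0.115). Cyp2g1, best known from olfactory mucosa, had 41.8, 52.6 and 67.2 against 72.3, 61.2 and 76.7 and a log2 fold change of 0.38 (SE 0.233, adjusted p = 0.32). Cyp2s1, at 24.4, 21.7 and 22.7 against 27.1, 20.1 and 23.4, stood at 0.03 (SE 0.336). In Cyp2r1, Cyp2g1 and Cyp2s1 the groups overlapped.

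The 17 members that could not be tested included 9 with no count in any library, namely Cyp2b13, Cyp2b19, Cyp2b23, Cyp2c66, Cyp2j7, Cyp2j12, Cyp2j13, Cyp2w1 and Cyp3a57. A count of 0 allows a share of up to 9.07e-06% to 1.12e-05% of a library, by the limit of 3 counts, for counting error only. The other 8 reached at most 19 counts, in Cyp2t4 in GalNAc-siNC mouse 2.

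In control mice, levels per length ran from 2817 ± 76.7 RPKM for Cyp2e1 to 532 ± 7.55 for Cyp2d9, 507 ± 29.4 for Cyp2f2, 493 ± 15.1 for Cyp2d26, 433 ± 15.1 for Cyp2d10 and 429 ± 19.8 for Cyp1a2 (SD, n = 3). Cyp2e1 was separate from all others, while the ranges of Cyp2d9, Cyp2f2 and Cyp2d26 overlapped from each gene to the next, as did those of Cyp2d10 and Cyp1a2. In this order Cyp3a11 was at place 12 with 195 ± 15.1 RPKM and Cyp2a5 at place 14 with 173 ± 5.66. In treated mice Cyp2a5 was at place 8 with 456 ± 2.30 RPKM and Cyp3a11 at place 9 with 446 ± 13.6. Cyp2c70 went from place 7 to place 10, with 397 ± 23.6 and 376 ± 6.29 RPKM, without a called difference.

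Summed over all 58 genes, P450 transcripts made up 18632 ± 563 CPM in GalNAc-siNC mice and 23354 ± 261 in GalNAc-siRnf10 mice, a ratio of 1.25 with no overlap (SD, n = 3). The sum had no test of its own; the smallest p an exact permutation test gives with 3 mice against 3 is 0.1. Cyp2e1 made 28.4% of the net difference, Cyp3a11 27%, Cyp2a5 12.4% and Cyp2c50 7.07%. By subfamily the sum was 1723 ± 127 and 3025 ± 79.8 for Cyp3a, 991 ± 20.6 and 1606 ± 12.9 for Cyp2a, 3847 ± 280 and 4590 ± 67.3 for Cyp2c, and 3328 ± 32.6 and 3789 ± 77.5 for Cyp2d, none of which overlapped between groups. Cyp2j, with 706 ± 55.9 and 695 ± 3.45, overlapped, and Cyp2u was lower in treated mice, with 51.9 ± 1.58 and 41.7 ± 2.83.

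**Figure D4:**
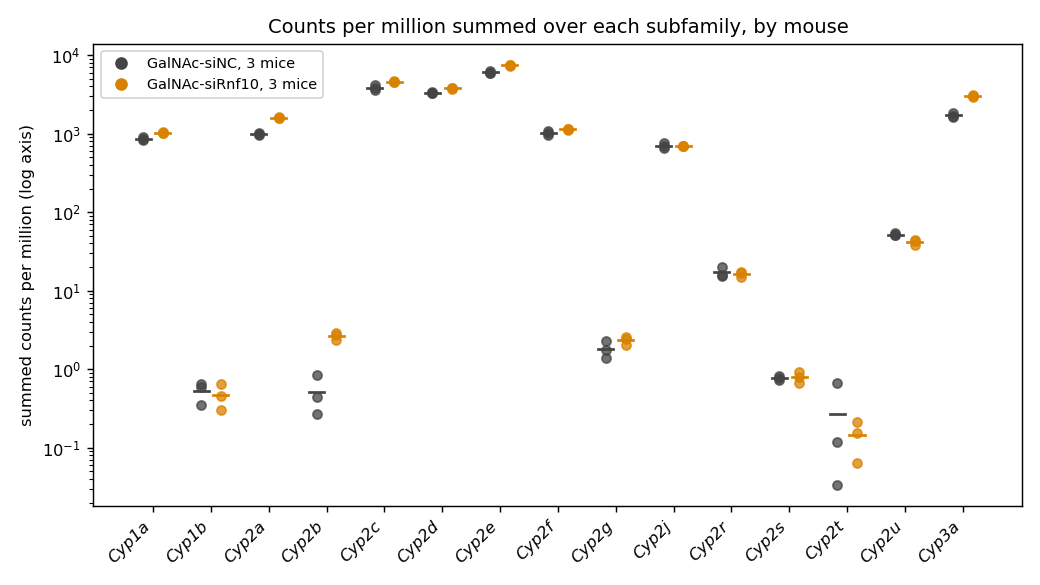
CPM summed over the members of each subfamily, on a log axis, with 1 point per mouse (3 GalNAc-siNC mice in grey, 3 GalNAc-siRnf10 mice in orange) and a line at each group mean; Cyp2w had no counts and is left out. Cyp2a, Cyp2b and Cyp3a show the widest gaps, and Cyp2j, Cyp2r, Cyp2s, Cyp2t, Cyp2g and Cyp1b overlap between groups.

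Among the factors that regulate P450 genes, 17 were tested, 4 rose and 2 fell. For this list and those below, the share over all tested genes was 6.71% higher and 7.28% lower. Nr1i3, which encodes CAR, had 548, 680 and 628 in GalNAc-siNC mice and 909, 939 and 1018 in GalNAc-siRnf10 mice, a log2 fold change of 0.63 (SE 0.0936, adjusted p = 0.000174). Nr1i2, which encodes PXR, had 1516, 1695 and 1322 against 1897, 1971 and 1972, a log2 fold change of 0.37 (SE 0.0835, adjusted p = 0.0066). Ahr had 1191, 1011 and 1160 against 1539, 1558 and 1605, a log2 fold change of 0.48 (SE 0.0783, adjusted p = 0.000385). In all 3 sensors the groups were separate. Nr0b2, the gene of the corepressor SHP, rose by 0.81, and the pioneer factor genes Foxa1 and Foxa2 fell, with log2 fold changes of -0.81 and -0.53. Hnf4a, Rxra, Nr3c1 and Cebpa were among the 11 not called, at log2 fold changes of 0.08, -0.06, -0.12 and -0.16. Without GalNAc-siNC mouse 1, 10 genes of this list were called.

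The partners of P450 enzymes and the heme pathway gave 15 tested genes, 4 higher and 1 lower. Alas1, the first and rate-limiting enzyme of heme synthesis in liver, had 16641, 18365 and 17071 in GalNAc-siNC mice and 29191, 29097 and 29325 in GalNAc-siRnf10 mice, a log2 fold change of 0.75 (SE 0.0536, adjusted p = 3.41e-08) with no overlap. Por, the electron donor of all microsomal P450 enzymes, had 11427, 14590 and 12408 against 15255, 15721 and 15936, a log2 fold change of 0.29 (SE 0.0745, adjusted p = 0.0178). Cyb5a, the gene of cytochrome b5, and Pgrmc1, a heme-binding P450 partner, rose by 0.47 and 0.25, and Pgrmc2, its paralog, had -0.22 (adjusted p = 0.0487). The 10 others were not called. The list had 3 called genes without GalNAc-siNC mouse 3 or without any 1 of the GalNAc-siRnf10 mice.

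Other known targets of the same sensors were counted as lists. Of 11 tested CAR and PXR targets outside the family, 7 rose and the other 4 were not called, led by adjusted p by the glutathione transferase gene Gstm1 (log2 fold change 0.99) and the transporter gene Abcc3 (0.84). Of 6 AHR targets outside the family, Ugdh (0.23) and Nqo1 (0.49) rose; without any 1 of the GalNAc-siRnf10 mice no gene of this list was called by edgeR, against 4 at an unadjusted p under 0.05 in all 6 mice; 4 were called without GalNAc-siNC mouse 1 and 1 without GalNAc-siNC mouse 3. Of 11 clock and PAR bZIP genes, 3 rose and 1 fell, with Per1 at 1.74 and Nr1d1 at -0.68; with the GC content and length correction 7 were called.

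**Figure D5:**
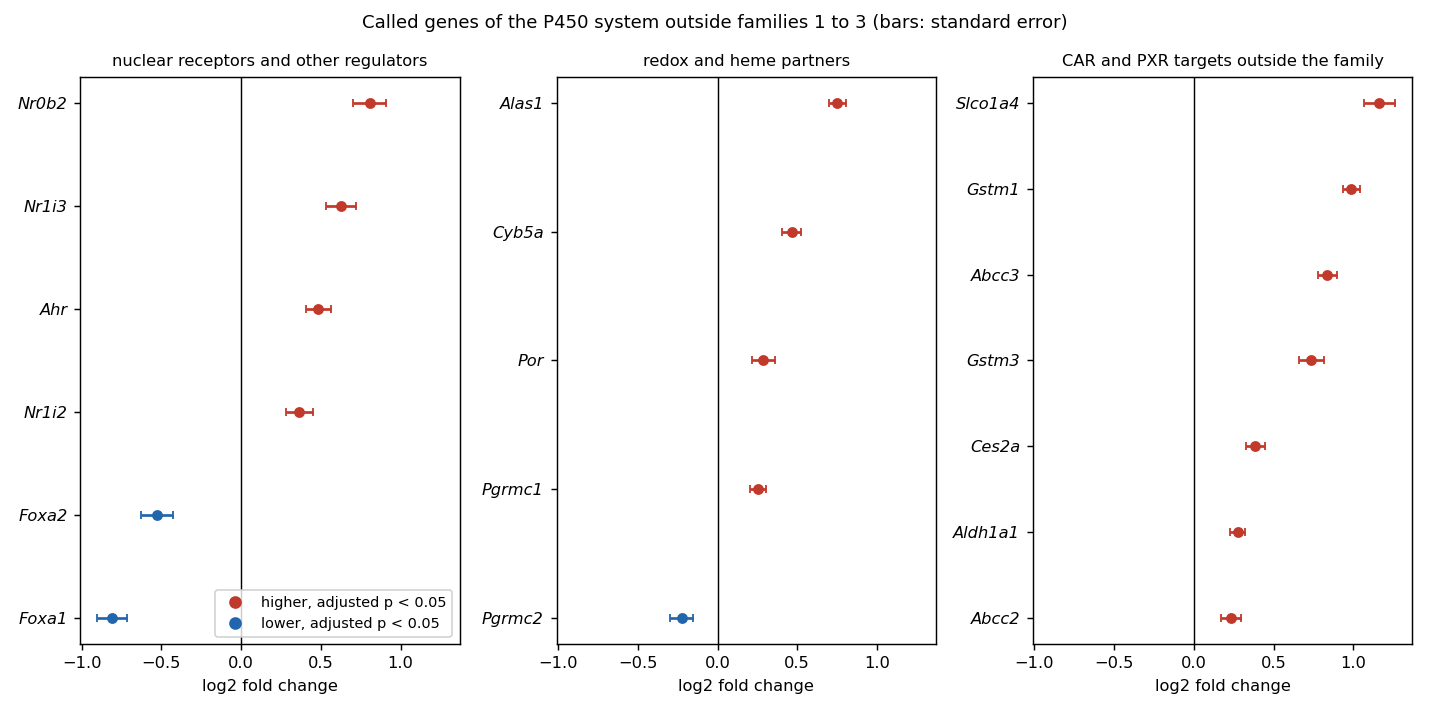
The log2 fold change of GalNAc-siRnf10 over GalNAc-siNC with standard errors (3 mice per group) for the called regulators of P450 genes, redox and heme partners, and CAR and PXR targets outside the family; genes not called are not drawn. Red points are higher and blue points lower at an adjusted p under 0.05, and the called genes include Nr1i3 at 0.63, Alas1 at 0.75 and Gstm1 at 0.99 on the higher side and Foxa1 at -0.81 on the lower side.

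P450 genes differ by sex and by zone of the lobule, so genes outside the family were counted for both. Of 7 male-biased genes, 3 rose and 1 fell, with Cyp4a12a at 0.48 and Slco1a1 at 0.23, and the 4 calls became 1 without any 1 of the GalNAc-siRnf10 mice and 2 without GalNAc-siNC mouse 2 or 3. Of 7 female-biased genes 2 could be tested. Fmo2 rose by 1.21, and Cyp4a14 lay in the other direction, at -0.46, and was not called (adjusted p = 0.0598, edgeR). Without GalNAc-siNC mouse 2 or GalNAc-siRnf10 mouse 2 both were called. Growth hormone signalling, which sets the male and female patterns of P450 genes, gave 3 higher and 3 lower of 9, with the STAT5 target genes Cish at -1.13 and Socs2 at 0.90. Of 11 pericentral genes outside the family 4 rose, with Oat at 0.47 and Slc1a2 at 0.33, and 1 fell, Axin2 at -0.44. The 6 others were not called and ran from -0.15 for Tbx3 to 0.09 for Gulo. After the GC content and length correction 3 pericentral genes were called. Of 8 periportal genes 6 rose, with Ass1 at 0.84 and Cps1 at 0.58. The median log2 fold change was 0.06 over the pericentral list and 0.48 over the periportal list. Called genes of both zones were mostly on the higher side. Oat, Ass1 and Cps1 averaged over 10000 normalized counts, a level at which 32.1% of tested genes were higher and 19.8% lower.

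Markers of cell types and of the acute phase moved in the same libraries. The 6 hepatocyte markers, 4 of them higher, summed to between 54042 and 58431 CPM in GalNAc-siNC mice and between 80021 and 82710 in GalNAc-siRnf10 mice, with Tat at 1.41 and Alb at 0.64. Alb made up most of this sum, and Apoa1 and Apob were not called, at 0.08 and -0.11. The 12 acute phase genes, 10 of them lower, summed to between 49174 and 57776 and between 32520 and 33144, with Lcn2 at -1.44 and Fgb at -0.83. The 6 Kupffer cell markers gave no edgeR or DESeq2 call (1 at an unadjusted p under 0.05) and summed to between 143 and 166 and between 154 and 162. Of 5 stellate cell markers 3 rose, with Dcn at 0.36 and Reln at 0.35 and sums of 80.5 to 86.1 and 102 to 106. Of 5 endothelial markers Clec4g rose, with list sums of 60.6 to 62.2 and 64.0 to 67.4, and of 5 cholangiocyte markers Spp1 fell by 0.90 on the log2 scale, with sums of 68.5 to 69.8 and 37.8 to 38.9. Spp1 made up most of the cholangiocyte sum, and Krt19, Krt7, Epcam and Sox9 were not called. The 2 tested lymphocyte markers gave no edgeR or DESeq2 call and none at an unadjusted p under 0.05. Without GalNAc-siNC mouse 1, 1 Kupffer cell, 2 endothelial and 2 cholangiocyte markers were called, 2 hepatocyte markers were called without GalNAc-siNC mouse 2, and 1 stellate cell marker without GalNAc-siRnf10 mouse 1. The part of these shifts in the P450 results was not tested.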

How the data were processed

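Liver RNA from 6 mice (1 library each) was analysed. Per the study's methods, stranded mRNA libraries were sequenced as paired-end reads and mapped to GRCm38 with HISAT2. The authors deposited raw counts per Ensembl gene and the length of each gene model; the counting tool, annotation release and strand setting are not given in the sources used here, and the study used DESeq2. Since reads were counted per gene, those of paralogs may be split or lost. Exact shared stretches of at least 100 bases were searched on either strand between transcripts of different genes (BLAST 2.17.0), and 36 of 58 members have them. Not all are shared with paralogs: those of Cyp2e1, Cyp2f2, Cyp2g1, Cyp2s1 and Cyp2u1 are shared only with genes that have no Cyp symbol.

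Genes were tested with edgeR 4.0.16 in R 4.3.3 (filterByExpr, TMM, robust quasi-likelihood F-test, treatment the only covariate), with Benjamini-Hochberg adjustment over 14046 genes and an adjusted p under 0.05 as a call. The common dispersion was 0.00861. RPKM was computed here from the counts and lengths. Symbols and coordinates came from GENCODE M21, whose gene span equals the table's for 54870 of 55487 genes; 346 had no symbol. Total counts were 26854377 to 33058645 per library; intervals and limits cover counting error only. The fit was tested on simulated data.

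Members and gene lists were chosen with earlier results of these data known. Values in every mouse are given for Cyp1a2, Cyp2b10, Cyp2e1 and Cyp3a11, for the member of each tested subfamily with the highest mean normalized count, and for the called members with the 5 largest rises and the 5 largest falls at a mean of at least 50; other called members are named. Named beside them are Rnf10, called genes of the regulator and the redox and heme lists, and the 2 called genes of each other list with the lowest adjusted p. The values by mouse of Cyp1a1 and Cyp2a4, the called gene Axin2, and the genes named though not called, were chosen after their values were seen. The lists covered regulators, redox and heme partners, AHR targets, CAR and PXR targets, clock and PAR bZIP genes (the symbol Bmal1 was not matched), growth hormone signalling, male-biased and female-biased genes, pericentral and periportal genes, acute phase genes, and markers of hepatocytes, Kupffer cells, endothelium, stellate cells, cholangiocytes and lymphocytes.

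Alternatives were RLE and upper quartile scaling, no filter on counts or a minimum of 10 in each library, limma 3.58.1 voom with quality weights, DESeq2 1.42.0, a block for the replicate number, spline offsets for GC content and length (5 degrees of freedom) with and without that block, stricter thresholds, and leaving out each mouse. The labels number mice 1 to 3 in both groups, but these are different animals. Tables and figures were made in Python 3.11.15 with pandas 2.3.3, numpy 2.4.6 and matplotlib 3.10.9.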

Additional observations from a re-analysis of the deposited data

How the results depend on the processing

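Of the 23 called P450 genes, 13 kept their call in every fit that could be made at an adjusted p under 0.05 (Cyp1a2, Cyp2a4, Cyp2a5, Cyp2b10, Cyp2c29, Cyp2c37, Cyp2c38, Cyp2c50, Cyp2c54, Cyp2d9, Cyp2d40, Cyp2e1 and Cyp3a11), and no called gene changed sign. With at least 10 counts in every mouse, Cyp2a4 and Cyp2b10 could not be fitted, and the other 21 kept their calls. Cyp2a4 passed the filter through the treated mice alone and Cyp2b10 needed them to pass it, so the places of both among the 13 carry no weight. With a log2 fold change of at least 0.5 also required, 8 members were higher, 0 lower by edgeR (5 at an unadjusted p under 0.05 and no limit on fold), and 34 of the 65 called listed genes remained. At an adjusted p under 0.01, 3 members were lower. Leaving out 1 mouse gave 14 to 21 members higher, 2 to 5 lower, and 50 to 80 listed genes. The lower count was 3, 2 and 2 without GalNAc-siRnf10 mouse 1, 2 and 3, and 1053, 1128 and 1128 of all genes were called there, against 1965. The fit without GalNAc-siNC mouse 1 called 2864. This mouse stood apart from the other controls. Its counts differed from theirs by a chi-square per gene of 30.7 and 30, against 10.3 between the other controls and 4.7 to 5.37 between treated mice. DESeq2 called 16 members higher and 4 lower, and limma voom 20 and 5; these and the other scalings and filters gave 16 to 20 higher and 4 or 5 lower.

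The GC content and length offsets gave 14 members higher and 7 lower, with Cyp2c70 and Cyp2j5 called lower at -0.24 and -0.15. Log2 fold changes of uncalled genes changed sign under these offsets for Cyp2c40 (-0.11, and -0.11 with the block) and Cyp2d26 (-0.011, and -0.00777 with the block), and with the block for Cyp2c39 (-0.00342). Leaving out 1 mouse also changed signs of uncalled genes, over -0.48 to 0.0321 for Cyp1b1, -0.26 to 0.52 for Cyp2c39, -0.44 to 0.11 for Cyp2d12, -0.0892 to 0.0283 for Cyp2j5, -0.16 to 0.0549 for Cyp2r1 and -0.0791 to 0.14 for Cyp2s1. The cause was not tested.

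Same-numbered mice did not deviate together (correlations -0.000993, 0.0272 and -0.0337), and differently numbered mice gave values from -0.0364 to 0.0368. With 3 mice per group this check cannot exclude pairing. With the replicate block, 17 members were higher, 4 lower and 63 listed genes called, with Cyp2c55 and Cyp2c69 no longer called. The 6 tested members with a mean under 30 normalized counts (Cyp1a1, Cyp1b1, Cyp2a4, Cyp2d11, Cyp2d12 and Cyp2s1) had standard errors of 0.336 to 0.552, which limits what depth can show for them.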
